A study of Drosophila melanogaster with 3 samples.

Results

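Of 3644 binding peaks of the forkhead protein Crocodile, fused to green fluorescent protein (croc-eGFP), 513 (14.1%, exact 95% binomial interval 13.0 to 15.2) had their summit inside a protein-coding gene but outside every exon, more than 500 bp and at most 2000 bp from the nearest protein-coding transcription start site (TSS). These near-start intronic peaks were taken from the conservative peak list of the series on chromosome arms 2L, 2R, 3L, 3R, X and 4 (dm6 build), with exons and starts from the Ensembl BDGP6 annotation. The summit is the base that the peak caller placed at the top of a peak. The rule used position alone, so position is given as a description, and signal, replicate support and sequence are compared with those of other classes of the list. Those classes were 825 deep intronic peaks (over 2000 bp from a start), 544 intergenic peaks (outside genes, over 500 bp and at most 10000 bp from a start) and 1478 promoter peaks (within 500 bp of a start).

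The series holds 3 biological replicates of a single group, whole Drosophila melanogaster embryos aged 0 to 18 h from flies carrying a croc-eGFP transgene. Chromatin was sonicated to fragments of 200 to 800 bp and precipitated with an antibody to GFP before sequencing. Whole embryos mix every tissue, so a peak cannot be placed in a cell type, and control libraries were not analysed here. Nothing in the labels says how far apart the 3 embryo collections were, so the spread between replicates may be partly technical. Each replicate has a thresholded list of peaks kept by the irreproducible discovery rate (IDR), a measure of how well a peak's rank repeats between 2 lists. The lists of replicates 1, 2 and 3 held 3195, 2408 and 1815 peaks on the 6 arms, and library depth is unknown because no read counts were used. The signal value is the authors' own for each peak, on a scale that is not stated, and serves here to rank peaks within a list. In the conservative list the near-start intronic peaks ran from a signal of 2.34 to 2914, with a median of 179.8.

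Forkhead proteins bind DNA through a winged-helix domain that reads a short A- and T-rich word, with TGTTTAC as the best known form. Crocodile is the fly relative of the vertebrate FoxC proteins and is known for its part in building the embryonic head and pharynx. The introns just inside a fly gene's start are long compared with later ones and are known to hold enhancers, the elements that switch genes on in particular tissues.

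The 101 bp around the summit of 4 of the strongest near-start intronic peaks are given as examples, with runs of 6 or more A or T in capitals (dm6, plus strand, 5′ to 3′).
cbt, chr2L:481042-481142: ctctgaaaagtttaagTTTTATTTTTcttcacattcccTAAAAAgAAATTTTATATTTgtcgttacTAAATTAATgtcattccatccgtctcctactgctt
CG11050, chr2L:6612675-6612775: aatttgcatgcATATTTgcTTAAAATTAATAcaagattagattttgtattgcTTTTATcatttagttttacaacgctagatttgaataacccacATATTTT
CG32772, chrX:4910315-4910415: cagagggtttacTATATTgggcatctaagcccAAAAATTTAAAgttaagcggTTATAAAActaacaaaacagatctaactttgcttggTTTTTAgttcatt
Lk6, chr3R:11760998-11761098: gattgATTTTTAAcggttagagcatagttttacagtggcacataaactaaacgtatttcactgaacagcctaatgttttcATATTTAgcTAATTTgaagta
Each window holds several such runs, and the longest measured 13 bases at cbt, 12 at CG11050, 11 at CG32772 and 8 at Lk6. None of these 4 windows holds a forkhead word. Peaks at Adf1 (signal 2160.4) and HmgZ (1722) were stronger than that at Lk6 (1612) and are not shown. Such runs were not counted in flanks or in other windows.

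A further 6 windows are shown because they hold the word TGTTTAC. They belong to the strongest peaks with that word that had a summit in all 3 replicates, and forkhead words on either strand are in capitals (dm6, plus strand, 5′ to 3′).
Trl, chr3L:14759472-14759572: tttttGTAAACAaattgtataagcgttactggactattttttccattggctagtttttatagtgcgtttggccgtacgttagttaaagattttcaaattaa
CG9663, chr2L:3302143-3302243: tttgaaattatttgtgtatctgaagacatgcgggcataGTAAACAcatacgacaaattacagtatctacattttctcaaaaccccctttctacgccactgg
Prps, chr3L:9693107-9693207: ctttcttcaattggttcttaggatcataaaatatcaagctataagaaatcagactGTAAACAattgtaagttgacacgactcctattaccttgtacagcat
fok, chr2L:20086579-20086679: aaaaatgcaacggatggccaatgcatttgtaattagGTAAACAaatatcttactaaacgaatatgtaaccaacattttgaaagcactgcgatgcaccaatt
Csk, chr3R:11649590-11649690: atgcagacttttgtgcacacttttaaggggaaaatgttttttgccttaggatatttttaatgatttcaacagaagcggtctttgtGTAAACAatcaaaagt
CG14434, chrX:6854679-6854779: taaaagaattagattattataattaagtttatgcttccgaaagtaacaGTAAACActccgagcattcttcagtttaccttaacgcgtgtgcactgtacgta
The word stood at a different place in each window and on the opposite strand in all of them, where it reads GTAAACA. Trl encodes GAGA factor, a DNA-binding protein that opens promoter chromatin, Prps a phosphoribosyl pyrophosphate synthetase, and Csk a kinase that restrains Src. The fok summit lies in an intron of neb.

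Windows at 4 genes of the BMP (Decapentaplegic) pathway are shown because that list held the most genes with a near-start intronic peak. Runs of 6 or more A or T are in capitals (dm6, plus strand, 5′ to 3′).
Mad, chr2L:3153356-3153456: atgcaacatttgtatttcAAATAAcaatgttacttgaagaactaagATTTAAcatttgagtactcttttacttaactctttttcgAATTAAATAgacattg
brk, chrX:7307161-7307261: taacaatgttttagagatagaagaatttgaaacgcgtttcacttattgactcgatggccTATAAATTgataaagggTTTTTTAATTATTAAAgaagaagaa
ush, chr2L:522049-522149: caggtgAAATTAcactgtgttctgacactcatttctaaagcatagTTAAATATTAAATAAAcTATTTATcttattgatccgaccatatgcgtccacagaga
tkv, chr2L:5238368-5238468: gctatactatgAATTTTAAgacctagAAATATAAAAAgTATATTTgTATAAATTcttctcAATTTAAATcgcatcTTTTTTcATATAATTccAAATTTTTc
Only the ush window holds a forkhead word, and it lies inside one of the capital runs. The brk summit lies in an intron of CG1677, with the brk start as the nearest. Windows at shn and put, the other genes of that list with such a peak, are not shown.

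Sites inside introns grew denser towards the gene start. The sequence that meets the rule covers 9.93 Mb, or 7.41% of the 6 arms, and held 51.7 near-start intronic summits per Mb, against 21.4 summits per Mb in deeper introns and 27.2 peaks per Mb over all arms. In bins of 250 bp the density was 66.8 summits per Mb at 501 to 750 bp, 59.1 at 751 to 1000 bp, 49.4 at 1001 to 1250 bp, 50.2 at 1251 to 1500 bp, 37.0 at 1501 to 1750 bp and 40 at 1751 to 2000 bp. Intron sequence within 250 bp of a start, which the rule leaves out, held 133 summits per Mb, and the bins from 2001 to 5000 bp held between 25.7 and 45.2. The limits therefore cut through a slope and not through a gap. By count, 242 summits lay 501 to 1000 bp from the start, 163 lay 1001 to 1500 bp away and 108 lay 1501 to 2000 bp away, with a median distance of 1033 bp.

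**Figure D1:**
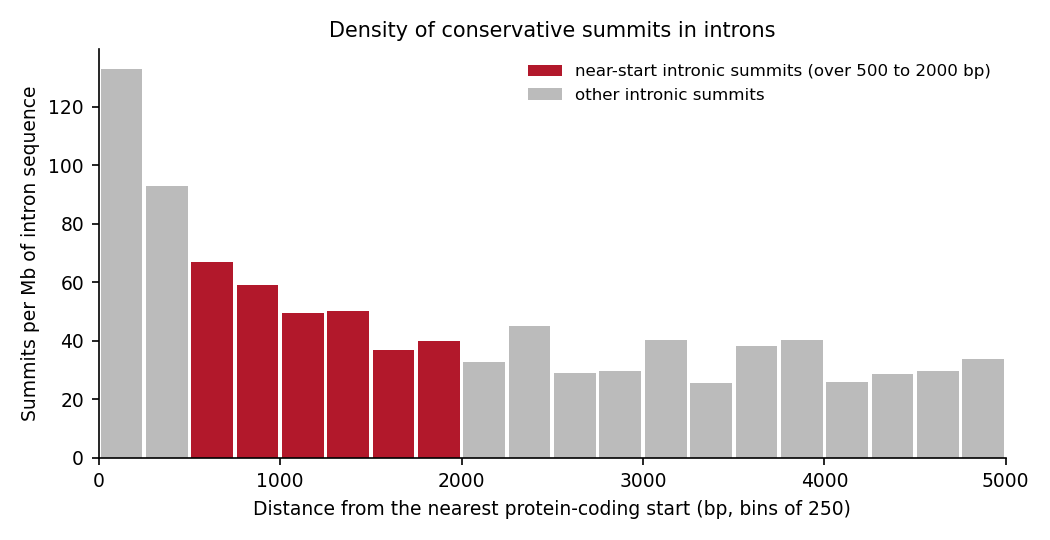
Density of conservative summits in introns (summits per Mb of intron sequence) by distance from the nearest protein-coding start, in bins of 250 bp; red bars are the near-start intronic summits and grey bars the other intronic summits. The red bars run from 66.8 at 501 to 750 bp to 40 at 1751 to 2000 bp, with 133 in the first grey bar.

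Peaks on either side of each limit had overlapping values. Just inside the lower limit, summits 501 bp from the starts of aru and CG5854 had signals of 406.6 and 175.4. Just outside it, summits 500 bp from CG43736 and 495 bp from CG3638 had signals of 506.5 and 256.1. Just inside the upper limit, the summits at CG3764 (1998 bp) and pum (1992 bp) had signals of 318.0 and 109.9, and just outside it those at CG33752 (2007 bp) and NFAT (2009 bp) had 188.9 and 208.8.

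Most of these summits were nearest to a start of the gene whose intron they sat in, as was most of the sequence that meets the rule. In 459 of 513 (89.5%) the nearest start was one of the host gene's own, and in 54 (10.5%) it was the start of another gene. Of all 513, 303 (59.1%) lay downstream of the host's own start and 156 (30.4%) lay upstream of it, in an intron that begins at a start farther away. The matching shares of the sequence that meets the rule were 62.0% and 19%. First introns held 414 summits (80.7%, interval 77.0 to 84.0), against 66.4% of the sequence that meets the rule. The share in first introns came to 82.6%, 81.9% and 82.4% for replicates 1, 2 and 3 (82.3% ± 0.366, mean and SD, n = 3). The host introns had a median length of 3643 bp and quartiles of 1812 and 8919 bp, and no comparison with other introns was made.

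Arm X held the highest density, with 121 near-start intronic summits (61.2 per Mb of sequence that meets the rule), 3R held 124 (55.1 per Mb), 3L held 103 (52.7 per Mb), 2R held 86 (45.2 per Mb) and 2L held 79 (45 per Mb). Chromosome 4, the small one, with 87.74 kb of such sequence, held none. The next conservative summit, of any class, lay at a median of 2190 bp. It lay within 1 median peak width (384 bp) for 120 summits, and 58 of them were the weaker of such neighbours, with a median signal of 20.46. Joined within 1 peak width, the 513 summits made 467 separate sites.

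Counted over all 3 thresholded lists, near-start intronic peaks recurred more often than deep intronic and intergenic peaks, and less often than promoter peaks. Their share was close to that of the whole list. A conservative peak was counted as supported where a replicate's thresholded list had a summit within 250 bp. Of the near-start intronic peaks, 229 (44.6%, interval 40.3 to 49.1) had support in all 3 replicates, 104 in 2, 124 in 1 and 56 in none. Over the whole list 43.6% of peaks had support in all 3. The share was 37.8% for deep intronic peaks (odds ratio 1.33, 95% interval 1.06 to 1.66, adjusted exact p = 0.0406), 35.5% for intergenic peaks (1.47, 1.15 to 1.88, adjusted p = 0.0231) and 51.0% for promoter peaks (0.774, 0.633 to 0.947, adjusted p = 0.0406). These are 2-sided Fisher's exact tests with Benjamini-Hochberg adjustment over 9 class comparisons, and they treat peaks as units, so their p-values speak for these lists alone, whatever the variation from embryo to embryo. None of the 3 differences passed Fisher's exact test with summits matched within 100 bp or with the ranked replicate lists. The difference from deep intronic and intergenic peaks also rested on the choice of replicates. Counting support in replicates 1 and 3 alone, the odds ratio against deep intronic peaks was 1.24 (adjusted exact p = 0.133). Counting support in replicates 1 and 2 alone, the odds ratio was 0.985 against deep intronic peaks (adjusted exact p = 0.955) and 1.14 against intergenic peaks (adjusted p = 0.520), while it was 0.735 against promoter peaks (adjusted p = 0.0383). The lists compared come from the same series and neighbouring peaks can share a replicate summit, so support is not independent evidence of a site.

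Near-start intronic peaks also recurred more often than deep intronic peaks in each replicate's own list. Applying the rule to each replicate's summits gave 459, 320 and 256 near-start intronic peaks in replicates 1, 2 and 3, or 14.4%, 13.3% and 14.1% of each list (mean 13.9% ± 0.562 SD, n = 3). Of these, 47.5%, 68.1% and 83.6% had a summit in both other replicates, against 39.7%, 58.9% and 81.5% of the deep intronic peaks of replicates 1, 2 and 3. No test was made of these shares. The lists share those summits, so the 3 values are not independent.

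By signal, near-start intronic peaks ranked below promoter peaks. Among the stronger 50% of the conservative list by signal stood 252 of 513 (49.1%, interval 44.7 to 53.5), against 55.3% of promoter peaks (odds ratio 0.781, 0.639 to 0.955, adjusted exact p = 0.0406), 47.2% of deep intronic peaks (1.08, 0.868 to 1.35, adjusted p = 0.562) and 43.6% of intergenic peaks (1.25, 0.982 to 1.59, adjusted p = 0.133). Only the difference from promoter peaks passed the test, and with the strongest 20% in place of the stronger 50% the calls changed. Near-start intronic peaks then held 20.7% against 13.8% of deep intronic peaks (odds ratio 1.61, adjusted exact p = 0.0115), and against 25% of promoter peaks the odds ratio was 0.780 (adjusted p = 0.0854). In the lists of replicates 1, 2 and 3, 51.0%, 50.9% and 48.4% of near-start intronic peaks stood in the stronger 50%, against 47.2%, 43.8% and 41.6% of deep intronic peaks and 55.6%, 53.8% and 56.0% of promoter peaks. The near-start intronic share lay above the deep intronic and below the promoter share in all 3 lists. Among conservative peaks supported in both other replicates, leaving out replicate 1, 2 or 3, the odds ratio against promoter peaks was 0.906, 0.963 or 0.883, and none of these passed the test (adjusted exact p = 0.709, 1.00 and 0.541).

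**Figure D2:**
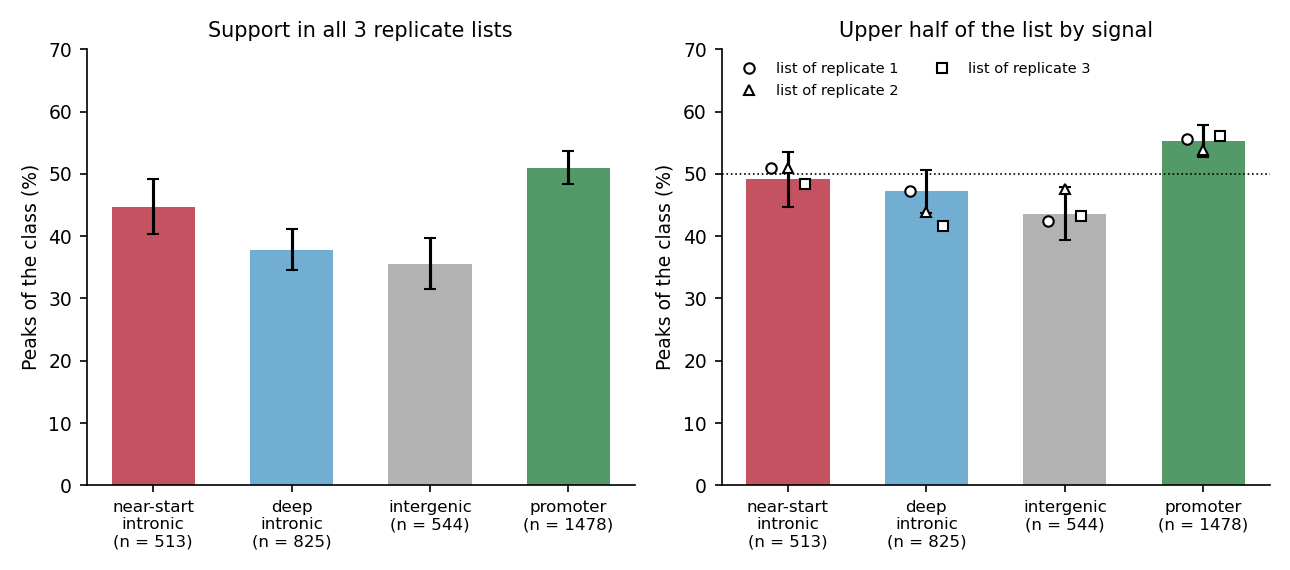
Left, percent of each class of conservative peaks with a summit in all 3 replicate lists; right, percent in the stronger 50% of a list by signal; bars are the conservative list with exact 95% binomial intervals, and open symbols are the replicate lists, each ranked on its own. Near-start intronic peaks had 44.6% support in all 3 replicates, between deep intronic (37.8%) and promoter peaks (51.0%), and 49.1% of them stood in the stronger 50%.

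The 25 strongest near-start intronic peaks all had support in all 3 replicates, with signals of 773.0 to 2914 and ranks 3 to 155 in the conservative list. Their ranks ran from 3 to 201 in replicate 1, 3 to 211 in replicate 2 and 5 to 289 in replicate 3. The 25 were picked by signal in a list of the same series, so these ranks are not independent evidence that the replicates agree. Of these 25, 22 lay in a first intron and 23 were nearest to their host's own start, 11 downstream and 12 upstream of it. A forkhead word lay within 50 bp of 8 of them, and 9 were at a gene that also had a promoter peak. Over all 513 near-start intronic peaks, 80.7% lay in a first intron. The host's own start was nearest for 89.5% of the 513, with 59.1% downstream and 30.4% upstream of it. For the forkhead word the share was 22.4%, and for a promoter peak at the gene 33.1%. The 25 were not tested against the rest.

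The strongest of all (2L 480904 to 481280) lay in an intron of ush, which encodes a partner of GATA factors, 1404 bp upstream of the start of cbt, which encodes a zinc-finger transcription factor. Its signal was 2914 overall and 1271, 1109.9 and 555.8 for replicates 1, 2 and 3. A peak in CG11050 (2L 6612530 to 6612900) followed with 2407, and 865.4, 1085 and 469.7 in the replicates. These levels are set within each list, and replicate 3 gave the lowest of the 3 values at both sites. In Adf1, a transcription factor gene first known from the Adh promoter, a first-intron peak (2R 6662883 to 6663253) had 2160.4, with 946.5, 817.2 and 414.2 in the replicates. CG32772 had a signal of 1791, and HmgZ, which encodes an HMG-box chromatin protein, had 1722. Lk6, a kinase that phosphorylates the translation factor eIF4E, had 1612 (593.1, 684.7 and 346.1 in replicates 1, 2 and 3). Trl had 1493 (575.1, 577.7 and 351.4).

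Further down, CG3726 had 1196 and LPCAT, an enzyme of membrane lipid synthesis, had 1154. CG9663 had 2 summits 199 bp apart in a single peak interval, with signals of 1189.6 and 998.7. They were supported by the same summits of replicates 1 and 3, so they are not separate evidence. The rest of the 25 held chif (1048), a partner of the replication kinase Cdc7, CG4496 (1033), Reph (897.9), mub (868.7), an RNA-binding protein gene, and ImpL2 (866.7), a secreted protein that binds insulin-like peptides. Alh (865.0), NFAT (854.5), gce (853.0), a juvenile hormone receptor gene, and for (845.4), a cGMP-dependent kinase gene, were close behind. edl (813.8), CG9837 (808.7), brat (780.4), a translational repressor gene, mlt inside KCNQ (776.6) and CG17834 (773.0) closed the group. All of these had a summit in each of the 3 replicates.

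**Figure D3:**
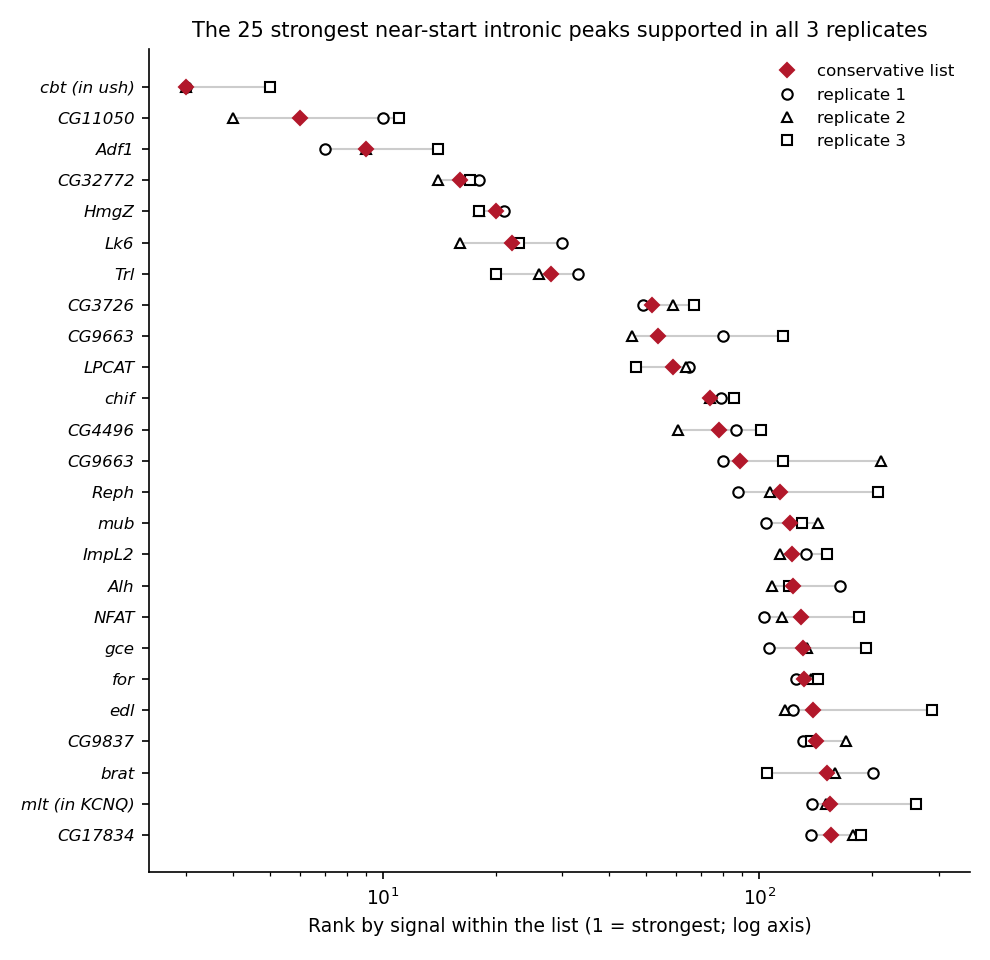
Rank by signal (log axis, 1 is the strongest) of the 25 strongest near-start intronic peaks with support in all 3 replicates, named by the gene of the nearest start; red diamonds are the conservative list and open symbols the replicate lists. The first is rank 3 in the conservative list and the last is rank 155, and the lowest replicate rank shown is 289, at edl in replicate 3.

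Most of these summits were richer in A and T than the sequence beside them. Within 50 bp of the summit A and T made up 68.0% of bases, against 57.8% at 500 bp to each side, an excess of 10.2 percentage points. Of the 513 summits, 429 (83.6%) had more A and T than their own flanks, and the values ran from 38.6% to 88.1%. In the replicate lists the excess was 11.2, 11.1 and 10.9 points (mean 11.1 ± 0.177 SD, n = 3). All windows of 101 bp laid end to end over the sequence that meets the rule averaged 61.1% A and T.

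The other classes had much the same composition at the summit. The conservative list had a summit A and T content of 67.8% for deep intronic, 67.0% for intergenic and 67.9% for promoter peaks. The excess over the flanks was 10.1, 9.26 and 13.6 points for deep intronic, intergenic and promoter peaks, and promoter flanks were the lowest in A and T, at 54.3%. Of near-start intronic summits 47.4% lay above the list's median A and T content, against 48.2% of the whole list, and the odds ratios were 0.989 (adjusted exact p = 0.955) against deep intronic, 1.11 (adjusted p = 0.543) against intergenic and 0.860 (adjusted p = 0.227) against promoter peaks. Their 95% intervals were 0.793 to 1.23, 0.869 to 1.41 and 0.703 to 1.05. Among peaks supported in both other replicates the odds ratio against promoter peaks did pass without replicate 1 (0.619, adjusted exact p = 0.0155) and without replicate 2 (0.591, adjusted p = 0.00332). The 58 summits with a stronger neighbour averaged 59.2% A and T, against 69.1% for the other near-start intronic summits.

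**Figure D4:**
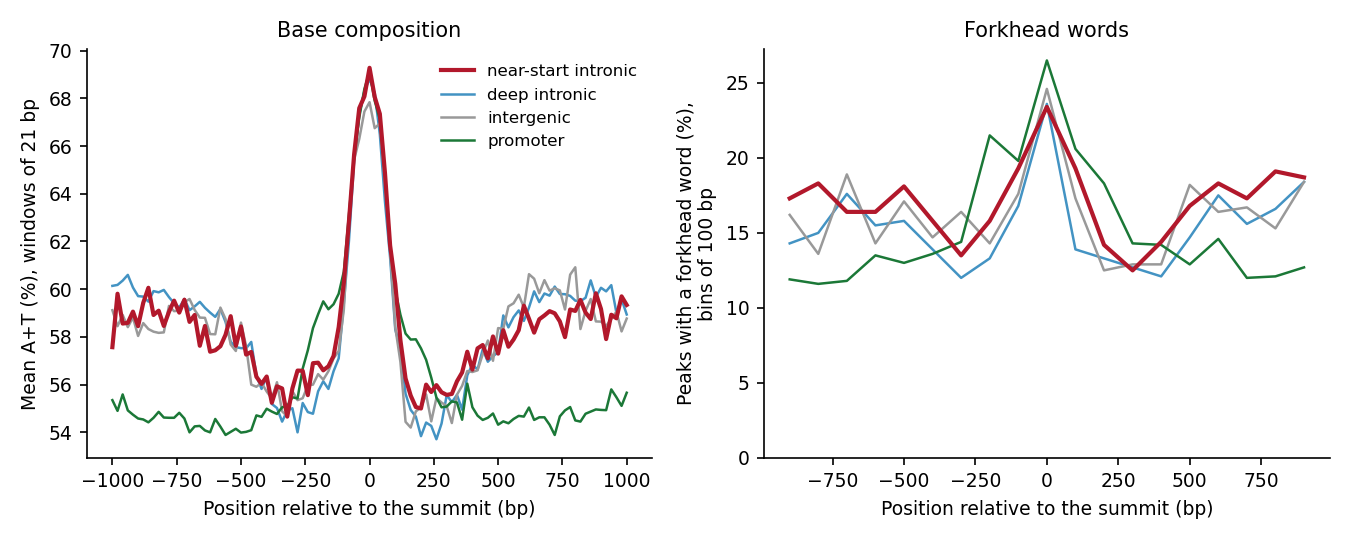
Left, mean A and T content (%) in windows of 21 bp, and right, percent of peaks with a forkhead word per bin of 100 bp, by position relative to the summit (bp) in near-start intronic, deep intronic, intergenic and promoter peaks of the conservative list. The 4 classes rise to like heights at the summit, where A and T averaged 68.0% over 101 bp for near-start intronic peaks, and promoter peaks have the lowest flanks, at 54.3%.

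The forkhead word was present at a minority of the summits. The word TGTTTAC, its variant TGTTTAT, the further variant TATTTAC and lastly the variant TATTTAT were searched on both strands, and at least 1 lay within 50 bp of 115 summits (22.4%, interval 18.9 to 26.3), against 23.6% over the whole list. The windows 500 bp to the left held one in 17.7% (ratio 1.26, exact McNemar test, adjusted p = 0.197 over 7 words). That difference did not pass the test, though it did with the windows to the right (ratio 1.42, adjusted exact p = 0.0197). With the inner limit at 1000 bp the ratio to the left windows was 1.00. In replicates 1, 2 and 3 the word stood at 25.7%, 25.9% and 22.3% of summits and 16.3%, 15.3% and 16.0% of flanks, a mean ratio of 1.55 ± 0.153 (SD, n = 3). The summit was higher in all 3 lists.

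A and T content moves with this word. Of the 84516 windows over the sequence that meets the rule, 17.6% held it, and 24.6% did once windows were weighted to the A and T content of the near-start intronic summits, a value inside the interval of the 22.4%. The other classes held it at 22.3% of deep intronic, 23.9% of intergenic and 25.6% of promoter summits, with odds ratios of 1.01 (0.773 to 1.31, adjusted exact p = 1.00), 0.920 (0.691 to 1.23, adjusted p = 1.00) and 0.841 (0.663 to 1.07, adjusted p = 0.602). No class difference passed Fisher's exact test. TGTTTAC alone, searched on both strands, stood at 18 summits (3.51%), against 2.44% of the whole list, and at 10 left flanks (1.95%, adjusted exact p = 0.324). It was in 2.74% of the windows that meet the rule, or 3.06% after weighting.

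GAGAGA and CACACACA were rarer at the summit than in the left flank. GAGAGA, the word read by GAGA factor, lay on either strand at 22 summits (4.29%), against 3.46% of the whole list, and at 44 left flanks (8.58%, exact McNemar test, adjusted p = 0.0250). In replicates 1, 2 and 3 it stood at 2.40%, 4.06% and 3.12% of summits and 8.50%, 8.75% and 9.77% of flanks, lower at the summit in all 3. With windows of 100 bp to each side its ratio of summit to flank was 0.727 and did not pass (adjusted exact p = 0.109). CACACACA lay at 5 summits (0.975%), against 0.768% of the whole list, and at 25 flanks (4.87%, adjusted exact p = 0.00126). Among peaks supported in both replicates 2 and 3 the ratio for CACACACA was 0.333 and did not pass (adjusted exact p = 0.134), and neither word passed with the inner limit at 1000 bp (adjusted exact p = 0.346 for each). Over the sequence that meets the rule 4.22% of windows held GAGAGA and 2.74% held CACACACA, or 2.93% and 1.45% after weighting by A and T content. Flank windows were set by distance from the summit alone, so some can lie outside that sequence. CAGGTA, the Zelda word, was at 8 summits and 13 flanks (adjusted exact p = 0.5), and 1.81% of those windows held it. All these words were searched on both strands.

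Against the other classes, 1 of 21 comparisons of these words passed Fisher's exact test, and which words passed depended on the window and the limits. With windows of 100 bp to each side 4 passed, namely TATCGATA, GAGAGA and CACACACA against promoter peaks (odds ratios 0.0181, 1.66 and 2.48, adjusted exact p = 3.26e-09, 0.0229 and 0.0229) and TGTTTAC against intergenic peaks (2.34, adjusted p = 0.0235). With the inner limit at 300 bp TATCGATA, GAGAGA and GGTCACAC passed against promoter peaks (odds ratios 0.0280, 2.53 and 0.0636, adjusted exact p = 3.19e-05, 0.0156 and 0.0240). TATCGATA, the DNA replication-related element of many housekeeping promoters, was at none of the 513 near-start intronic summits, where 3 counts would make a share of 0.585% and the exact 95% interval reaches 0.717%, and at 33 of 1478 promoter summits (2.23%, adjusted exact p = 0.00147). Among conservative peaks supported in both other replicates, leaving out replicate 1, 2 or 3, the difference did not pass (adjusted exact p = 0.555, 0.496 and 0.377). Nor did it pass in the strongest 50% of the list (adjusted exact p = 0.525) or with the inner limit at 1000 bp (adjusted exact p = 0.139). Its share was 0.933% over the whole list and 0.190% over the windows that meet the rule. Near-start intronic and promoter peaks are set apart by distance to a start. A difference in croc peaks therefore cannot be told apart here from one of position. GGTCACAC, the core of the M1BP word, was at none of the near-start intronic summits and at 14 promoter summits (0.947%, adjusted exact p = 0.256), and at 0.136% of the windows. Of the 21 comparisons, the 3 that set near-start intronic against promoter peaks for TATCGATA, GGTCACAC and GAGAGA had an unadjusted p under 0.05, and so did TGTTTAC against intergenic peaks (3.51% against 1.47%, adjusted exact p = 0.256).

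A search of all 2080 words of 6 letters, a word and its reverse complement counted as 1, gave the same contrast of A and T against G and C. At the near-start intronic summits 125 words (6.01%) were more frequent than at the left flanks and 157 (7.55%) were less frequent (exact McNemar test, Benjamini-Hochberg adjusted over all words). Of the 125, 113 had at least 5 letters A or T, and of the 157, 154 had at most 3. TTAAAA stood first, at 36.1% of summits and 13.5% of flanks (adjusted exact p = 7.20e-13), followed by ATTTTA at 32.0% and 13.5% (adjusted p = 4.41e-10). Among the less frequent, CCCGTC was at none of the summits and 4.48% of flanks (adjusted exact p = 2.48e-05), and ACACAC was at 3.51% and 11.5% (adjusted p = 1.07e-04). A word's share can move with base composition, and no correction for it was made in this search.

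Between classes the 6-letter words hardly differed. By Fisher's exact test with adjustment over the 2080 words, none differed between near-start intronic and deep intronic summits (89 had an unadjusted p under 0.05), and none between near-start intronic and intergenic summits (94 unadjusted). Against promoter summits 2 were less frequent, CGATAG and AATAAA, and 138 had an unadjusted p under 0.05. CGATAG, which overlaps TATCGATA in 5 letters, was at 0.780% of near-start intronic and 6.02% of promoter summits (adjusted exact p = 7.94e-05). AATAAA was at 27.5% of near-start intronic and 38.8% of promoter summits (adjusted exact p = 0.00338).

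Near-start intronic peaks were spread over 412 genes, named by the nearest start. They make up 4.04% of the 10201 genes with sequence that meets the rule. Of these genes 333 had 1 such peak, 60 had 2 and 19 had 3 or more. A promoter peak was also present at 137 of the 412 genes (33.3%), against 1063 of the 10201 (10.4%). This is a description of the same list and was not tested.

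The 3 genes with 4 near-start intronic summits each were Timp, shn and dlg1. At Timp, a metalloproteinase inhibitor gene that sits in an intron of Syn, the 4 summits lay within 799 bp, formed 1 site and had signals of 234.6, 22.01, 18.06 and 11.67, none with support in all 3 replicates. At shn, a zinc-finger cofactor of the BMP pathway, they lay at 3 sites over 15197 bp with signals of 470.6, 248.1, 170.4 and 32.28, all with support in all 3 replicates. At dlg1, a scaffold gene of septate junctions and synapses, they lay at 3 sites over 20077 bp with 144.3, 123.3, 114.0 and 12.08. The lowest signal at each of the 3 genes belonged to a summit beside a stronger one.

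The 16 genes with 3 summits had maxima from 115.1 to 1493. Trl had the highest, with 1493, 287.0 and 134.8 at 3 separate sites over 4386 bp, followed by CG9837 (808.7), CHES-1-like (529.9), CG42258 (478.4), CBP (433.4) and brk (430.5). Tlk, a chromatin kinase gene, had 368.5, sick 330.2, Acsl, an acyl-CoA synthetase gene, 312.7 and Svil 271.9. Tre1, a receptor that guides germ cells, had a maximum of 242.2, pum, a translational repressor, 181.4, shot, a linker of actin and microtubules, 169.4, CG9674 153.2, Spn 141.7 and CG15365 115.1. At brk, CHES-1-like and Svil all 3 summits had support in all 3 replicates, although 1 at each was a weak summit beside a stronger one.

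Genes of 16 lists of embryonic regulators and controls held these peaks more often than genes at large. Of 287 list genes with sequence that meets the rule, 36 (12.5%) had a near-start intronic peak, against 4.04% of all such genes. Per Mb of that sequence the list genes had 93.2 peaks, against 51.7 overall. List genes also had more peaks of any kind, 51.9% against 18.9% of all such genes, and the lists were not tested.

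BMP signalling, the Decapentaplegic pathway of dorsal patterning, had the highest share of genes, with 6 of 19. Peaks of any kind were at 12 of the 19 (63.2%). Its 13 near-start intronic peaks came to 243 per Mb, below the forkhead family (298 per Mb) and the Polycomb and Trithorax genes (274 per Mb). The forkhead density rested on 4 peaks in 13.42 kb, 3 of them at CHES-1-like. That of the Polycomb and Trithorax genes rested on 5 peaks in 18.27 kb, 3 of them at Trl. Of the 13 peaks of the BMP list, 10 had support in all 3 replicates and 2 stood beside a stronger summit. Applied to the lists of replicates 1, 2 and 3, the rule found 7, 5 and 5 of its genes. The 6 genes encode receptors and nuclear factors, and whether they differ in this from the other genes of the list was not tested. Mad, the Smad that carries the signal to the nucleus, had a peak 653 bp from its start (2L 3153269 to 3153548) with a signal of 729.7 overall and 351.0, 242.9 and 135.6 in replicates 1, 2 and 3. shn, a partner of Mad, had a maximum of 470.6 (236.4, 174.3 and 66.44). brk, the repressor of the pathway's targets, had 430.5 (177.9, 148.9 and 110.4). ush, a target gene of the pathway, had 356.0 (142.3, 128.2 and 84.51) besides the summit nearest to cbt in its intron. The type I receptor gene tkv had 287.4 (90.83, 121.6 and 64.71). The type II receptor gene put had 159.4 and a summit in replicate 1 alone (58.55). So 5 of the 6 genes had a peak found in every replicate.

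In the EGF receptor and Ras pathway 4 of 19 genes had 5 peaks. They were edl, an inhibitor of the factor Pointed (813.8 and 353.0, 336.2 and 134.4 in replicates 1, 2 and 3), S, which encodes a carrier of the pathway's ligands (593.9 and 258.6, 199.0 and 125.0), pnt, Pointed itself (172.8 and 170.1 at 2 sites), and sty, an inhibitor of receptor signalling (119.7, with no replicate summit). Among 10 genes of the forkhead family, CHES-1-like had a maximum of 529.9 (218.1, 204.9 and 102.9) and jumu had 144.5 with a summit in replicate 3 alone (61.26). Among 20 Polycomb and Trithorax genes there were 3, Trl, ph-p (312.4, beside promoter peaks of up to 2767) and the chromatin remodeller gene kis (249.6). Each of these 3 had a peak with support in all 3 replicates.

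Of 23 mesoderm and heart genes 4 had 1 peak each: zfh1, a homeodomain factor (676.2), rols, needed for myoblast fusion (237.7), the T-box gene Doc1 (170.9) and stumps, an adaptor of FGF receptors (128.6), and the first pair had support in all 3 replicates. Of 13 tracheal genes 3 did, rib (447.6), tai (229.6) and sty, and of 14 ecdysone genes 3 did, tai, the ecdysone receptor gene EcR (229.4) and Hr4 (174.8). Growth and actin regulators had 5 of 29, namely cno, an adherens junction gene (380.4), the insulin receptor gene InR (322.5), the myosin VI gene jar (282.8), the cofilin gene tsr (241.9) and shot (169.4). The neural list had brat and elav (148.8), and the list of axon guidance and adhesion had Ten-a (420.2) and dlg1. The other lists had 1 gene each, neur (325.9) for Notch, sgg (148.3) for Wingless and Hedgehog, Abd-B (150.3) for Hox and bowl (134.9) for gap and pair-rule genes, of which neur alone had support in all 3 replicates.

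No near-start intronic peak was found at any of the 11 head and pharynx genes or the 31 cytoplasmic ribosomal protein genes with sequence that meets the rule. That sequence came to 34.87 kb and 9.345 kb, so at the overall density few peaks could be met there. Peaks of other classes were present at 4 of the 11 and 13 of the 31.

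**Figure D5:**
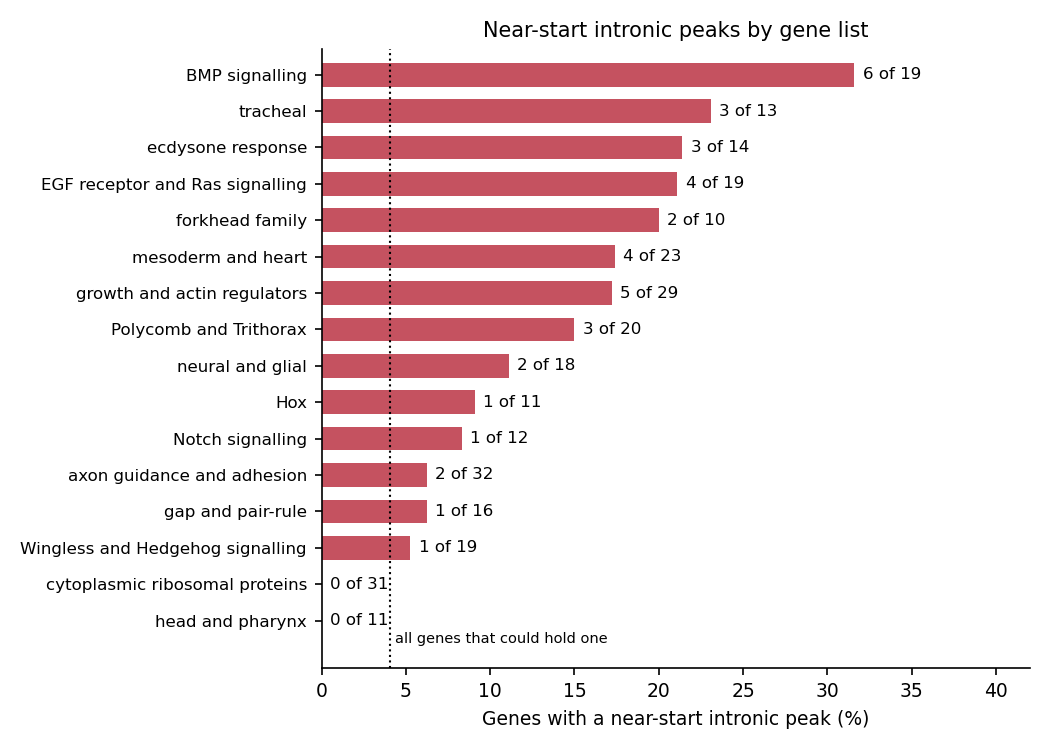
Percent of the genes of each list that had a near-start intronic peak, with the number of genes and the number with sequence that meets the rule beside each bar; the dotted line is the share over all 10201 such genes, 4.04%. BMP signalling stands first with 6 of 19, and the head and pharynx and ribosomal protein lists have none.

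Within the near-start intronic class, neither place nor word went with support or signal beyond the test. Summits nearest to their host's own start had support in all 3 replicates in 46.0% (n = 459), against 33.3% of those nearest to another gene's start (n = 54; odds ratio 1.70, 0.939 to 3.08, adjusted exact p = 0.279). Summits with a forkhead word had it in 47.8%, against 43.7% of those without (1.18, 0.778 to 1.79, adjusted exact p = 0.571). First introns had 45.9% against 39.4% for other introns (1.30, 0.834 to 2.04, adjusted exact p = 0.523). Summits at 501 to 1000 bp stood in the stronger 50% by signal in 46.7%, against 57.4% at 1501 to 2000 bp (0.650, 0.411 to 1.03, adjusted exact p = 0.279). Of the 10 such comparisons none passed Fisher's exact test after adjustment, and none had an unadjusted p under 0.05, the lowest being 0.0630. The intervals leave room for differences in either direction.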

How the data were processed

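Peak lists of 3 ChIP-seq samples were used as deposited. The authors' lists are on dm6 and were ranked or thresholded by IDR, per the labels and the listings that came with them. Software and versions behind the peaks: not given in the sources used here. Each deposited signal value has no stated scale and was used for ranks within a list. The deposited score, a scaled IDR score, was read and not tested. No counts were used, so depth is unknown.

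Of 3650 conservative peaks 6 lay off the 6 arms and were left out. Starts and exons came from the Ensembl BDGP6.54 annotation (release 115), sequence from the Release 6 reference, and "exon" means an exon of any annotated gene. Exact binomial intervals cover counting error only. Fisher's exact and McNemar tests ran in scipy 1.17.1 (Python 3.11.15), were tested on simulated data, and passed at an adjusted p under 0.05. Intervals of odds ratios are 95% intervals.

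The members, classes, words and gene lists were chosen with earlier results of these data known. Symbols with no match in the annotation were not analysed here. Genes were named as the nearest-start and host genes of the 25 strongest peaks with support in all 3 replicates, the top 2 genes of each list, genes with 3 or more peaks, and 2 peaks on each side of each limit. All other genes named, Prps, fok, Csk and CG14434 among them, were chosen after their values were seen. The search of 6-letter words, the windows weighted by A and T content (in steps of 4%), the comparisons within the class, the densities per list and support in pairs of replicates over the whole list were added after seeing the data. Alternatives were other limits, exons, windows, flanks, matching distances, replicate lists, signal cuts and peak subsets, and leaving out each replicate.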

Additional observations from a re-analysis of the deposited data

Results flagged for a closer look

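The series also holds 3 thresholded lists besides the conservative one, of 2889, 3248 and 3191 peaks on the 6 arms, that entered no comparison. They held 57 separate sites that meet the position rule and lie over 250 bp from every conservative summit, and these are given because no comparison used them. The lists held 17, 41 and 20 of these peaks. A summit in replicate 3 supported 9 of the 57. The strongest, named after their values were seen, were at Tab2 (205.2, support in all 3 replicates), dock (165.2, support in 1) and AMPdeam (160.7, support in 1).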

How the results depend on the processing

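Of 432 values recomputed under 18 alternatives, 320 are counted as unchanged, with direction and side of the threshold kept for tests, and 45 changed direction. In 40 of the 45 neither value passed the test. The unchanged values include tests that passed neither in the main setting nor in the alternative. Odds ratios below are near-start intronic over the class named. Support in all 3 replicates is the least settled comparison. Against deep intronic, intergenic and promoter peaks it gave 1.47, 1.51 and 0.933 in the strongest 50% of the list, 1.25, 1.41 and 0.816 with summits matched within 100 bp, and 1.06, 1.48 and 0.695 with the ranked replicate lists, none of which passed. Against deep intronic peaks it also failed to pass without weaker neighbours (1.27), with the outer limit at 3000 bp (1.19) and, over the whole list, without replicate 2 (1.24) or replicate 3 (0.985, reversed). Against intergenic peaks it failed without replicate 3 (1.14), and against promoter peaks with the inner limit at 1000 bp (0.922). Among peaks supported in both other replicates, leaving out 1 replicate at a time gave 0.367 to 1.72 against deep intronic, 0.989 to 1.74 against intergenic and 0.915 to 1.16 against promoter peaks. Of these, 0.367 (without replicate 1) and 0.989 (without replicate 2) reversed, as did 1.16 and 1.08 against promoter peaks without replicates 1 and 2. These restricted lists compare presence in the replicate left out.

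The comparison of signal with deep intronic peaks passed in the strongest 50% of the list (1.62) and for the strongest 20% (1.61). That with promoter peaks failed in the strongest 50% (0.939), for the strongest 20% (0.780), with the inner limit at 1000 bp (0.923) and without each replicate (0.883 to 0.963). High A and T content against promoter peaks passed in the strongest 50% (0.672), and it ranged from 0.591 to 0.848 without each replicate. The forkhead ratio of summit to flank passed with the inner limit at 300 bp (1.41), the outer at 3000 bp (1.42), windows of 100 bp to each side (1.32), the right flank (1.42) and, of 1.27 to 1.57 without each replicate, without replicate 3. With the inner limit at 1000 bp the forkhead ratio was 1.00 and did not pass. The cause of these changes was not tested.

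Odds ratios that never passed also changed side of 1. In the strongest 50% of the list these were high A and T against intergenic peaks (0.784), the forkhead word against deep intronic (0.848), GAGAGA against deep intronic and intergenic (0.705 and 0.801), CAGGTA against promoter (0.745) and CACACACA against deep intronic and intergenic peaks (1.55 and 0.940). Without weaker neighbours they were the forkhead word, GAGAGA and CACACACA against deep intronic (0.985, 0.928 and 1.21) and GAGAGA against intergenic peaks (0.809). The inner limit at 300 bp gave 1.07 for high A and T against deep intronic and 0.883 for CAGGTA against promoter peaks, and that at 1000 bp gave 0.808 for the forkhead word against deep intronic and 0.743 for CAGGTA against promoter peaks. The outer limit at 3000 bp gave 0.890 and 0.915 for GAGAGA against deep intronic and intergenic and 0.945 for CAGGTA against promoter peaks. Wider windows gave 1.10 for high A and T and 1.06 for CACACACA against deep intronic peaks, and 1.03 for the forkhead word and 3.19 for GGTCACAC against intergenic peaks. Without each replicate the ranges were 0.893 to 1.29 for signal and 0.760 to 1.01 for high A and T against intergenic peaks, 0.818 to 1.02 for the forkhead word against deep intronic, 0.479 to 0.720 and 0.563 to 1.00 for GAGAGA and 0.955 to 5.44 and 0.841 to 1.72 for CACACACA against deep intronic and intergenic, and 0.712 to 1.29 and 0.824 to 1.01 for CAGGTA against intergenic and promoter peaks.

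The A and T excess of the conservative list was 11.6 points in the strongest 50%, 11.1 without weaker neighbours, 10.6 and 9.30 with the inner limit at 300 and 1000 bp, 7.90 with wider windows and 10.5 to 11.0 without each replicate. Its replicate mean was 11.7 and 10.5 with those limits, 8.23 with wider windows and 11.7 on the right. The share of peaks that meet the rule was 18.0% and 7.44% with the inner limit at 300 and 1000 bp and 18.4% with the outer at 3000 bp, since each limit changes the sequence that counts. Of 7 words, 0 differed between summit and flank with the inner limit at 1000 bp, and 1 to 3 without each replicate. List genes with a peak numbered 23 in the strongest 50% of the list and 23 to 26 without each replicate.

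No paired analysis was possible because the series holds 1 group. Library depth is unknown, and a site missing from a replicate list is not shown to be unbound there.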
